A study of Mus musculus with 598 samples.

Results

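The cells described here are 50 wild type mouse cells at E7.25 that carried the highest levels of 3 genes of early heart progenitors, 14.7% of the wild type cells at that stage, in a series of 598 cells. Sorting kept cells that carried the Mesp1-GFP reporter, and each library holds the RNA of 1 cell. They were chosen by the measured levels of these genes. The 3 genes were Myl7, Tnnt2 and Smarcd3, and a cell's score was the mean of their log2(CPM + 1) values, where CPM (counts per 1e+06) is a gene's reads scaled to the cell's total on genes. The libraries form 2 sets that the labels do not name. Set 1 took the cells that had a read in 5 or more of Foxe1, Dusp15, Kcnk12, Pou3f3, Six3, Vax1, Sox3 and Hoxd13, and set 2 the rest. The 25 cells of highest score in each set, called cardiac-high here, were set against all other E7.25 cells of the same set. The score used the reads of the same cells, so the differences between cardiac-high and other cells are a description.

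The study followed the first steps of cardiovascular lineage choice in Mesp1-GFP+ cells of gastrulating embryos. Besides the wild type cells at E7.25 it held 83 wild type cells of set 1 and 89 of set 2 at E6.75 and 85 knockout cells of that age, all in set 1. The labels do not name the gene that was knocked out. Summed Mesp1 reads gave 7.40 CPM in the knockout cells and 406 CPM in wild type cells of the same age and set. No embryo, litter or pool is named for any cell, so each group is 1 sample, without a test or a replicate check. The 95% intervals given are exact ones, Clopper-Pearson for a share of cells and Poisson for a sum of reads. They cover counting error only, and reads are not tied to single molecules by an identifier. Where no cell counted, the limit given is 3 counts over the number of cells.

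Mesp1 is a transcription factor that is switched on for a short time in mesoderm cells as they leave the primitive streak. Some of these cells move to the front of the embryo and build the cardiac crescent, while others form blood vessels, blood, extraembryonic membranes and the mesoderm of the head. Genes of the contractile apparatus and the chromatin factor Smarcd3 are among the early signs of a cardiac fate, and regulators such as Nkx2-5 and Tbx5 mark the crescent that follows.

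The cardiac-high cells had 926150 reads on genes in the median cell of set 1 (120045 to 2724807) and 2102730 in that of set 2 (112131 to 5081675). The other cells had medians of 794808 and 2273395. With every cell thinned at random to 100000 reads, the median cell had 7207 genes with a read among cardiac-high and 7033.5 among other cells of set 1, and 8373 and 8232 in set 2. The 5 deepest cardiac-high cells of each set gave 42.1% of the summed reads in set 1 and 33.5% in set 2. Genes whose reads tell the sets apart are named as such where they appear.

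The genes behind the score were contributed unequally. Myl7, the atrial myosin light chain, had a read in all 50 cardiac-high cells. Its level ran from 43.9 to 1734 CPM per cell in set 1 (median 425) and from 37.4 to 1522 in set 2 (median 453). In other cells it ran from 0 to 760 (median 25.7) and from 0 to 936 (median 15.4). The cells of highest Myl7 were cardiac-high in both sets, but the ranges overlapped. Summed over cells, Myl7 stood at 514 CPM against 131.6 in set 1 and at 471 against 107.4 in set 2. Smarcd3, a subunit of the SWI/SNF chromatin remodelling complex, was found after thinning in 56% of cardiac-high cells of set 1 (34.9 to 75.6) and 48% in set 2 (27.8 to 68.7), against 6.08% and 5.59% of other cells. Its summed level was 20.9 CPM against 0.749 in set 1 and 14.5 against 0.611 in set 2. Smarcd3 overlaps Chpf2 over 3739 bases on the opposite strand, and without a stated strand setting reads of that stretch cannot be told apart. Tnnt2, cardiac troponin T, was rare. It had a read in 2 cardiac-high cells of set 1, where 1 cell gave 95.3% of the reads, and in 8 cells of set 2. Among the other cells of set 1 it had no read, which allows a share of cells with a read of up to 2.03% and says nothing of cells that express it below detection. All 3 genes were read together in 1 cell of set 1 and 2 cells of set 2.

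Cells just inside and just outside the chosen 25 had nearly the same score. In set 1 the last cell taken scored 3.29, with Myl7 at 929 CPM and neither other gene read, and the next cell scored 3.25, with Myl7 at 518 CPM and Smarcd3 at 0.669 CPM. In set 2 the last cell taken scored 3.35, with Myl7 at 1061 CPM alone, and the next scored 3.34, with Myl7 at 741 CPM and Tnnt2 at 0.409 CPM. The median score was 4.22 and 4.20 in the cardiac-high cells and 1.72 in the others of set 1 and 1.499 in those of set 2. The choice therefore took the upper end of a continuous range, as the plot of scores by stage and set shows.

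**Figure D1:**
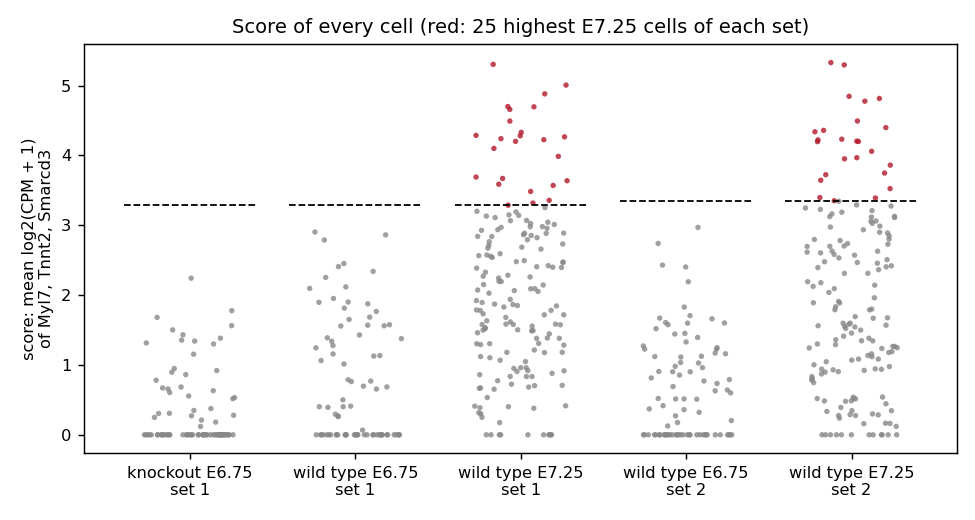
Score of every cell (mean log2(CPM + 1) of Myl7, Tnnt2 and Smarcd3) by group and library set, 1 point per cell, with the 25 highest E7.25 cells of each set in red and a dashed line at the lowest of their scores. Scores at E7.25 run without a gap through the line, and no cell at E6.75 reaches it.

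The promoters of the scored genes are shown because these 3 genes define the cells. Each sequence is the 250 bases before the annotated start, 5′ to 3′ on the gene's strand, from RefSeq on GRCm38.p6, and all 3 genes had an entry. Capitals mark GATAA on either strand (TTATC on the strand shown), the core bound by GATA factors. The windows lie at chr11:5898783-5899032 on the minus strand (Myl7), chr1:135836084-135836333 on the plus strand (Tnnt2) and chr5:24602003-24602252 on the minus strand (Smarcd3).
Myl7: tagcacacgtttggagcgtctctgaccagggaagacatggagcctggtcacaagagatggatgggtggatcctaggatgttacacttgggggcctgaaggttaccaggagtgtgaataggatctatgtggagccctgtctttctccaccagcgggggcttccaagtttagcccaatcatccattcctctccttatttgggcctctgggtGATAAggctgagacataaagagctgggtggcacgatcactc
Tnnt2: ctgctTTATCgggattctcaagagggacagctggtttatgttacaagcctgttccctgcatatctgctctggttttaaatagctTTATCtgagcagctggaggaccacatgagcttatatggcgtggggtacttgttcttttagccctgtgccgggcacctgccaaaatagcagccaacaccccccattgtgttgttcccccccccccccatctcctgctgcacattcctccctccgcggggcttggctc
Smarcd3: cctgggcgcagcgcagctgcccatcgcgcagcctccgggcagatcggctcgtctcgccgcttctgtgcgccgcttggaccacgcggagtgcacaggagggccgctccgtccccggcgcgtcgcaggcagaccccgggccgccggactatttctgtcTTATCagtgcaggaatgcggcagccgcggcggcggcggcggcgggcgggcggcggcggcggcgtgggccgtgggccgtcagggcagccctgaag
Myl7 held 1 GATAA, 41 bases before the start, Tnnt2 held 2 further upstream, and Smarcd3 held 1, at 94 bases. A second Tnnt2 promoter, at chr1:135836739-135836988, held 0. Of 32851 RefSeq promoter windows of this length, 22.6% held GATAA on either strand. The T-box core AGGTGT was in none of these windows and in 11.8% of all. The E-box CANNTG, bound by factors such as Hand and Mesp proteins, was in each of them and in 66.2% of all. A match is a description of the sequence only.

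Checked against cardiac markers outside the score, the name cardiac progenitor fitted these cells in part. Of 11 such markers, 10 had a higher summed level in the cardiac-high cells of set 1 and 9 in set 2, and 3 and 6 of them were at least 2-fold higher. Of all genes measured, 4.37% in set 1 and 2.94% in set 2 were 2-fold higher. Gata5, 1 of the markers, tells the sets apart, and Nkx2-5 fell under the minimum set for measured genes further on. The summed level of these markers per cell had a median of 490 CPM against 292.9 in set 1 and 377 against 231.6 in set 2. The ranges overlapped, with single cells up to 1014 CPM against 1205 in set 1 and 1014 against 1013 in set 2. The markers that define the crescent were scarce. Nkx2-5, the homeobox gene of the crescent, was found after thinning in 4 cells of 25 in set 1 and 3 of 25 in set 2. Tbx5, a T-box gene of the first heart field, was found in 1 cell of each set, and Hcn4, a pacemaker channel of the same field, in 0 of either set. The cells are therefore named by their score, not as a cell type.

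Markers of other cell types moved with the choice. The summed level of 5 epiblast markers had a median of 79.3 CPM per cardiac-high cell against 356 per other cell in set 1, and 94.7 against 410 in set 2. That of 5 presomitic markers was 318.6 against 776 and 211.1 against 984. That of 4 anterior paraxial markers was 37.6 against 15.2 and 84.9 against 48.4, and 4 of these markers had a higher summed level in set 1 and 2 in set 2. The 6 extraembryonic mesoderm markers had medians of 160.7 against 43.7 CPM in set 2. In set 1 the reads of Foxf1 in every cell set that sum (2366 against 2047). For 6 haemato-endothelial markers the medians were 71.5 against 58.7 in set 1 and 50.3 against 80.8 in set 2, with single cells up to 2112 and 2214 CPM, and Cdh5 had no read in the cardiac-high cells of set 1. Of 4 erythroid markers, the embryonic globins Hbb-bh1 and Hba-x had no read in any cardiac-high cell. The other 2, Gata1 and Klf1, had a higher summed level in both sets, and 1 marker of the 4 was at least 2-fold higher in each. Of all genes measured, 4.37% and 2.94% were 2-fold higher. The summed erythroid markers had a median of 0 CPM per cell in every group. Single cells reached 76.9 CPM against 110.1 in set 1 and 213.2 against 155.2 in set 2. Endoderm and axial markers had medians of 5.25 CPM against 1.76 in set 1 and 4.90 against 5.95 in set 2, with 4 of 6 at least 2-fold lower in summed level in each set and Noto at 0 in set 1 and Sox17 at 0 in set 2. Of all genes measured, 8.84% in set 1 and 5.49% in set 2 were 2-fold lower. Bone marrow markers, included because a protocol in the labels speaks of such cells, had medians of 1.83 against 2.26 and 0 against 0. The part of these other markers in the differences given here was not tested.

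A gene counted as higher or lower when its summed level, with 1 CPM added, was at least 2-fold different in the same direction in both sets. Of 12887 genes measured (at least 1 CPM in each set), 76 were higher in the cardiac-high cells (0.59%) and 2.1% were lower. The 76 include the scored genes Myl7 and Smarcd3, whose rise follows from the choice of cells. Without scored genes, 74 of 12885 were higher. In set 1 alone 4.37% of these genes were 2-fold higher and 8.84% lower, and in set 2 alone 2.94% and 5.49%. The log2 ratio of the median gene was -0.02. Of the lower genes, 46 had no read in the cardiac-high cells of at least 1 set, so their ratios rest on the 1 CPM added. The numbers depended on single cells. Without the cardiac-high cell with the most reads of each gene, 19 genes were higher and 815 lower, and a fall of every ratio is built into that step. Without the other cell with the most reads, 1.22% were higher and 1.37% lower.

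The higher genes changed more than the lower ones when Smarcd3 was left out of the score. Higher genes were also lost under other choices of cells, as given above, and the part of Smarcd3 in this was not tested. With the score taken from Myl7 and Tnnt2 only, 28 of the 50 cells were the same, and 18 of the 76 higher genes and 59.8% of the lower genes were called again. The 76 include Myl7, which is part of both scores. The epiblast and streak genes were lower under both scores, while the medians of the first heart field, BMP and extraembryonic genes given here fell to -0.16, 0.16 and 0.01 under the score without Smarcd3. These last lists share Bmp4.

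The genes named as higher included growth factor, cytoskeletal and matrix genes and an inhibitor of bHLH factors. Igf2, an imprinted growth factor, was found after thinning in 76% of cardiac-high cells in set 1 and 92% in set 2, against 36.5% and 56.6% of other cells. Its level ran from 0 to 491 CPM per cardiac-high cell in set 1 (median 23.7) and from 0 to 1125 in set 2 (median 152.6), and the medians in other cells were 2.49 and 10.997. Summed Igf2 was 58.3 CPM against 25.5 in set 1 (2.29-fold, 2.16 to 2.43) and 246.1 against 33.2 in set 2 (7.41-fold, 7.22 to 7.60). A cell without Igf2 reads was the exception among cardiac-high cells of set 2. Igf2 shares its whole span with the annotated transcript Gm49394 and lies opposite Igf2os.

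Capn6, a calpain without protease activity that binds microtubules, had the largest mean difference per cell. It ran from 0 to 1030 CPM per cardiac-high cell in set 1 (median 28.6) and from 0 to 606 in set 2 (median 72.8), with medians of 2.02 and 0 in other cells. Its summed level was 193.9 CPM against 61.6 and 135.96 against 26.7, log2 ratios of 1.64 and 2.30. Krt18, a keratin of simple epithelia, was 196.4 CPM against 87.9 and 269.7 against 124.98, and 1 cardiac-high cell of set 1 reached 2343 CPM. Rab32 and Rab3il1, a small GTPase and a Rab exchange factor, had log2 ratios of 1.27 and 1.53, and 1.24 and 2.27.

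Apoe, an apolipoprotein, and Sparc, a matrix protein, were read in all 50 cardiac-high cells after thinning. Apoe ran from 66.1 to 1908 CPM in set 1 (median 669) and from 43.5 to 2524 in set 2 (median 673), against medians of 158.5 and 188.7 in other cells. Sparc ran from 50.5 to 999 (median 515) and from 69.2 to 771 (median 386), against 158.4 and 145.7. No cardiac-high cell was at 0 for either gene, while both ranges still overlapped those of the other cells. Id3, a target of BMP signalling that blocks bHLH factors, ran from 128.3 to 1459 (median 750) and from 11.96 to 2271 (median 615), against medians of 239.5 and 226.3.

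Sox9, a transcription factor of mesenchyme and cartilage, was 47.5 CPM against 11.4 in set 1 and 45.2 against 13.9 in set 2. Gchfr, the feedback regulator of GTP cyclohydrolase 1, was 37.4 against 7.95 and 49.5 against 12.6. Adrb3, a beta-adrenergic receptor, was 46.04 against 8.52 and 71.4 against 24.8. Vasn, which binds TGF-beta, had log2 ratios of 1.57 and 1.31, and Zfp365, a zinc finger gene, 1.45 and 2.21. Vasn overlaps Dnaja3 over 10814 bases on the same strand and Coro7 over 10862 on the opposite strand. Adrb3 overlaps the antisense transcript Gm45470 over 11647 bases. Spin2c, a spindlin listed with the extraembryonic genes, had log2 ratios of 1.49 and 1.98, and it belongs to a gene family whose copies may share reads.

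Hand2os1, a long non-coding RNA opposite Hand2, ran from 0 to 97.3 CPM per cardiac-high cell in set 1 (median 25.3) and from 0 to 135.5 in set 2 (median 19.9). The medians in other cells were 0.520 and 0, and the summed levels were 24.3 against 8.03 and 33.97 against 4.77. It overlaps Hand2 over 3251 bases on the opposite strand, so reads from there cannot be told apart. Without the cell with the most reads of the gene, 7 of these 15 genes still passed the 2-fold threshold in both sets (Capn6, Gchfr, Hand2os1, Spin2c, Rab32, Apoe and Adrb3). Under the score of Myl7 and Tnnt2, 5 did.

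**Figure D2:**
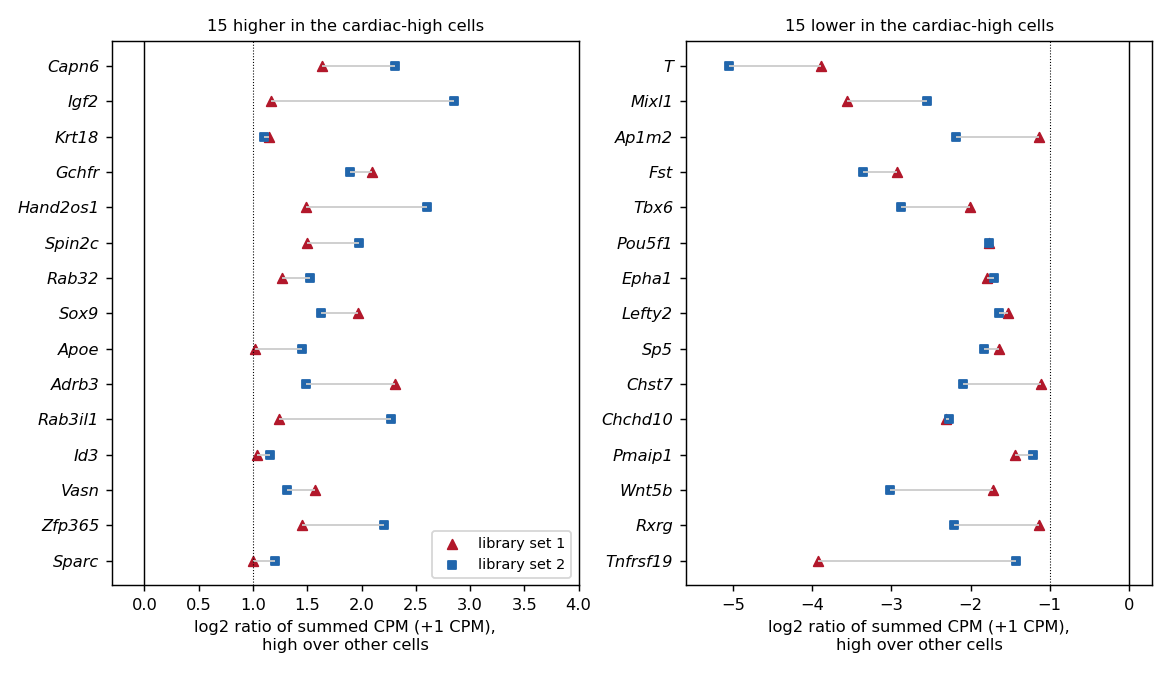
Log2 ratios of summed CPM (1 CPM added), cardiac-high over other E7.25 cells, of the 15 named genes in each direction, with set 1 as triangles and set 2 as squares. Grey lines join the ratios of both sets for each gene, and dotted lines mark the 2-fold threshold. T and Igf2 show the largest gaps from 0 among lower and higher genes of set 2.

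The genes named as lower were led by those of the primitive streak. T (brachyury), a T-box factor of the streak, ran from 0 to 60.5 CPM per cardiac-high cell in set 1 (median 2.86) and from 0 to 56.6 in set 2 (median 3.20). Other cells ran up to 1284 CPM (median 142.3) and 2944 CPM (median 148.7). No cardiac-high cell reached the median of the other cells in either set. Summed T was 11.96 CPM against 191.8 and 12.4 against 443, log2 ratios of -3.89 and -5.05. Mixl1, a homeobox gene of the streak, had medians of 3.37 CPM against 119.9 in set 1 and 0.872 against 222.2 in set 2, and its log2 ratios were -3.56 and -2.55. Some cardiac-high cells kept high Mixl1, up to 331.6 CPM in set 1 and 981 CPM in set 2. Tbx6, a T-box factor of presomitic mesoderm, had summed levels of 9.25 CPM against 40.02 and 17.4 against 135.1.

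Fst, which encodes the activin antagonist follistatin, was 22.5 CPM against 177.5 and 31.6 against 333.01. Lefty2, a Nodal antagonist, had cell medians of 37.6 CPM against 673 and 22.4 against 475. Pou5f1, the pluripotency factor Oct4, was still read in all 50 cardiac-high cells, with medians of 35.97 CPM against 248.7 in set 1 and 62.4 against 292.8 in set 2. The WNT targets and ligands Sp5 (log2 ratios -1.64 and -1.83) and Wnt5b (-1.71 and -3.02) were lower, as were Tnfrsf19 (-3.92 and -1.42), Epha1 (-1.79 and -1.71), Chchd10 (-2.32 and -2.27), Pmaip1 (-1.44 and -1.21), Chst7 (-1.11 and -2.10), Rxrg (-1.13 and -2.20) and Ap1m2 (-1.13 and -2.19). Without the other cell with the most reads of the gene, 14 of these 15 still passed the threshold in both sets. Under the score of Myl7 and Tnnt2 12 did, with 10 CPM added 12, and without the cells shared with the comparison groups described further on 11. Chchd10, Epha1, Wnt5b, Fst, Pou5f1 and Tnfrsf19 each overlap another annotated gene on the opposite strand.

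Among contractile genes, 8 of the 23 beside the scored ones were measured, and 1 was called higher and 0 lower. Over all genes measured, 0.59% were called higher and 2.1% lower, which are the shares to set beside the counts of each list. Their median log2 ratio was 0.68, against -0.02 over all genes measured. Myl4, the embryonic atrial light chain, was the gene called, at 5.002 CPM against 1.67 in set 1 and 22.5 against 4.02 in set 2, and it was found after thinning in 36% of cardiac-high cells of both sets, against 8.11% and 15.4% of others. Tnni1, slow troponin I, had log2 ratios of 0.44 and 1.75. It was found after thinning in 24% and 64% of cardiac-high cells. Tpm1, alpha tropomyosin, was read in every cardiac-high cell after thinning, at 558 CPM against 292.5 and 544 against 353. Actc1, cardiac alpha actin, barely differed in summed level, at 27.6 CPM against 22.5 and 52.7 against 50.2. Its mean log2(CPM + 1) per cell was 0.69 higher in cardiac-high cells, so the measures differ for Actc1. The mature sarcomere genes stayed near 0: Myh6 was at 0.0752 and 1.80 CPM, Myh7 at 0.0752 and 0.170, Ttn at 0.263 and 0.442, and Mybpc3 at 0.113 and 0.0170. Of the genes of calcium handling and ion channels, 4 of 15 were measured and 0 were called.

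**Figure D3:**
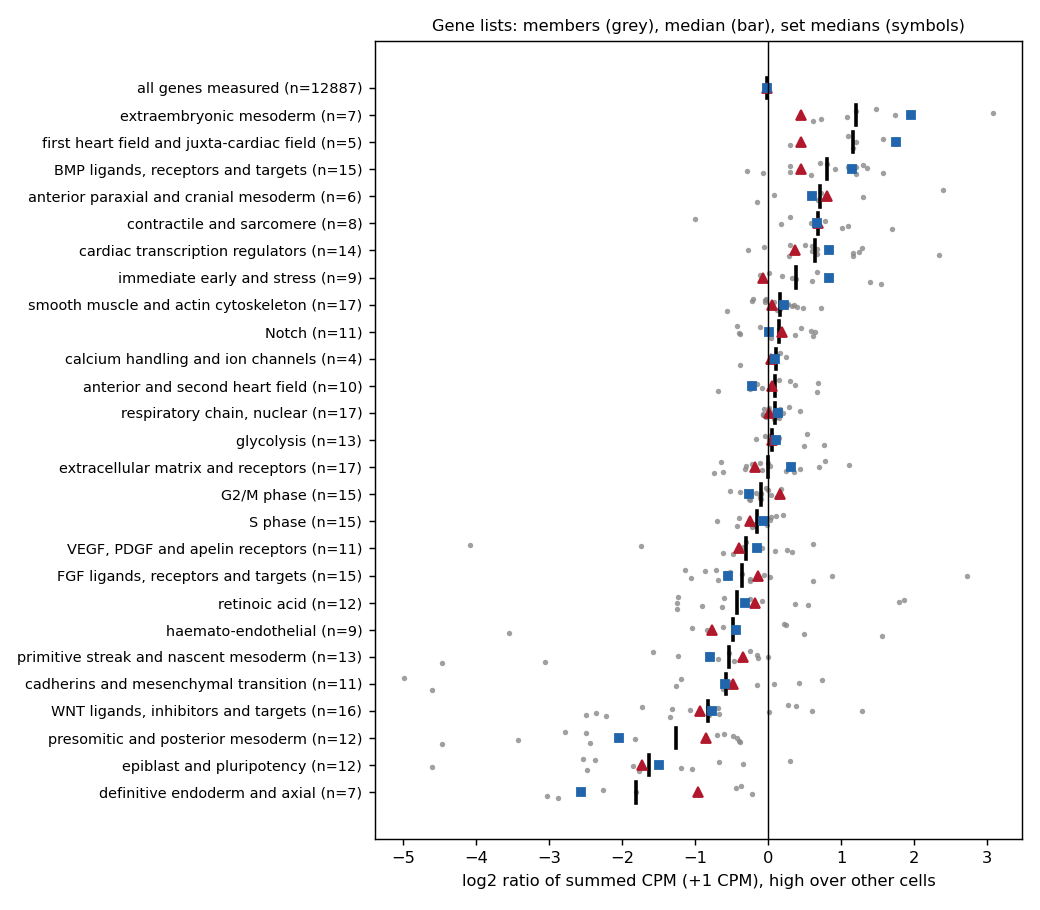
Log2 ratios of summed CPM (1 CPM added), cardiac-high over other E7.25 cells, for the measured members of each gene list (grey points, mean of both sets), with the median as a bar and the medians of set 1 (triangles) and set 2 (squares). The epiblast, presomitic and endoderm lists lie left of 0 in both sets, and the extraembryonic, first heart field and BMP lists lie right of 0 by less in set 1 than in set 2. These last lists share Bmp4.

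Of the cardiac transcription regulators, 14 of 20 were measured, and 0 were called in either direction, with a median log2 ratio of 0.63. A count of 0 in a list of this size is near the 0.59% higher and 2.1% lower of all genes. In this list, 2 genes tell the sets apart. Hand1, a bHLH factor of the heart fields and extraembryonic mesoderm, ran from 0 to 940 CPM per cardiac-high cell in set 1 (median 42.9) and from 0 to 1026 in set 2 (median 96.1). Other cells had medians of 2.44 and 0.706 CPM, with single cells up to 1736 and 1650. Summed Hand1 was 1.51-fold higher in set 1 (1.45 to 1.57) and 3.38-fold higher in set 2 (3.31 to 3.45). Without the cardiac-high cell with the most Hand1 reads, the log2 ratio was -0.05 in set 1 and 1.503 in set 2. Hand1 was thus more widely read among cardiac-high cells, and the highest single cells were among the others.

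Tbx20, a T-box regulator of the heart, was 43.03 CPM against 15.4 in set 1 and 33.3 against 17.5 in set 2, and it was found after thinning in 56% and 48% of cardiac-high cells against 24.3% and 28.7% of others. Gata4, a zinc finger factor, was found in 100% and 88% of cardiac-high cells, with log2 ratios of 0.70 and -0.12. Gata6 had log2 ratios of 1.13 and 0.21. Isl1, a LIM homeobox gene of the second heart field, was 8.50 CPM against 9.15 in set 1 and 28.7 against 10.004 in set 2. Mef2c, a MADS box factor, was 6.36 against 10.2 in set 1 and 23.6 against 6.02 in set 2. The direction of Isl1 and Mef2c thus differed between the sets.

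Nkx2-5 fell under the minimum for measured genes, but its summed level was 4.14 CPM against 0.245 in set 1 (16.9-fold, 11.6 to 24.97) and 3.83 against 0.246 in set 2 (15.6-fold, 11.96 to 20.5). A single cell gave 65.5% of the cardiac-high reads of Nkx2-5 in set 1 and another 72.4% in set 2. Hand2, a bHLH factor of the heart, was read in set 1 in nearly every cell, 92% of cardiac-high and 93.9% of other cells after thinning, so set 2 carries its comparison. There it was found in 48% of cardiac-high cells and 7.69% of others, at 11.3 CPM against 1.62. Gata5, which tells the sets apart, was 25.4 CPM against 0.259 in set 2 and was found there in 32% of cardiac-high cells and 1.40% of others.

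The list of first heart field and juxta-cardiac field genes had 5 of 11 members measured, 1 higher and 0 lower, and a median of 1.17 (set 1 alone gave 0.45, set 2 alone 1.75). Bmp5, a BMP ligand, was the one called, at 14.7 CPM against 6.38 and 24.9 against 5.19. Mab21l2, a gene of the juxta-cardiac field, was found after thinning in 0 cells of set 1 and 1 of set 2. The anterior and second heart field list had 10 of 15 measured and 0 called, with a median of 0.09, where 0.59% of all genes were higher and 2.1% lower. Tbx1, a T-box factor of that field and the pharynx, was outside the measured genes, at 4.51 CPM against 0.296 in set 1 and 11.8 against 2.54 in set 2, and was found in 4 and 8 of 25 cardiac-high cells after thinning.

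The cardiac-high cells were not alike. After thinning, Hand1 and Foxc2, a forkhead factor of head and paraxial mesoderm, were both found in 15 of the 50 cells, Hand1 alone in 18, Foxc2 alone in 16 and neither in 1. Across the 25 cells of each set, the Pearson correlation of their log2(CPM + 1) values was -0.77 in set 1 and -0.72 in set 2. In the other cells it was -0.34 and -0.42. These correlations are over cells of 1 sample and are a description. Hand1 correlated with the logarithm of depth at -0.25 and 0.27 in the cardiac-high cells of sets 1 and 2, and Foxc2 at 0.16 and -0.05. Foxc2 was paired with Hand1 after the values had been seen.

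Some genes of the extraembryonic and BMP lists, chosen after their values were seen, had positive correlations with Hand1 among the cardiac-high cells. The correlation with Hand1 was 0.62 and 0.74 for Bmp4, 0.77 and 0.82 for Msx2, a BMP target, and 0.79 and 0.83 for Pmp22, a membrane protein listed with the extraembryonic genes. For Bmp4 it was as high among the other cells, 0.62 and 0.61. Alx1, a homeobox gene of head mesenchyme, went the other way, at -0.30 and -0.67. Myl7, by which the cells were chosen, had correlations with Hand1 of -0.30 and -0.13. The map of single cells shows these genes cell by cell.

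Nkx2-5 and Tbx5 were found in few cells, and Isl1 mostly in cells with Hand1. All 7 cells with Nkx2-5 after thinning also had Hand1, and 3 of them had Isl1. Hand1 was common, however: of the cells without Nkx2-5, 26 had it and 17 had not. None of the 7 had Tbx5, and none had Tnnt2, which was found in 8 other cells. With so few cells of the 50, an overlap of 0 says nothing of exclusion. Isl1 was found in 18 cells, 15 of them with Hand1, and of the cells without Isl1 18 had Hand1 and 14 had not. Tbx5 was found in 2 cells, both with Hand1 and 1 with Isl1.

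**Figure D4:**
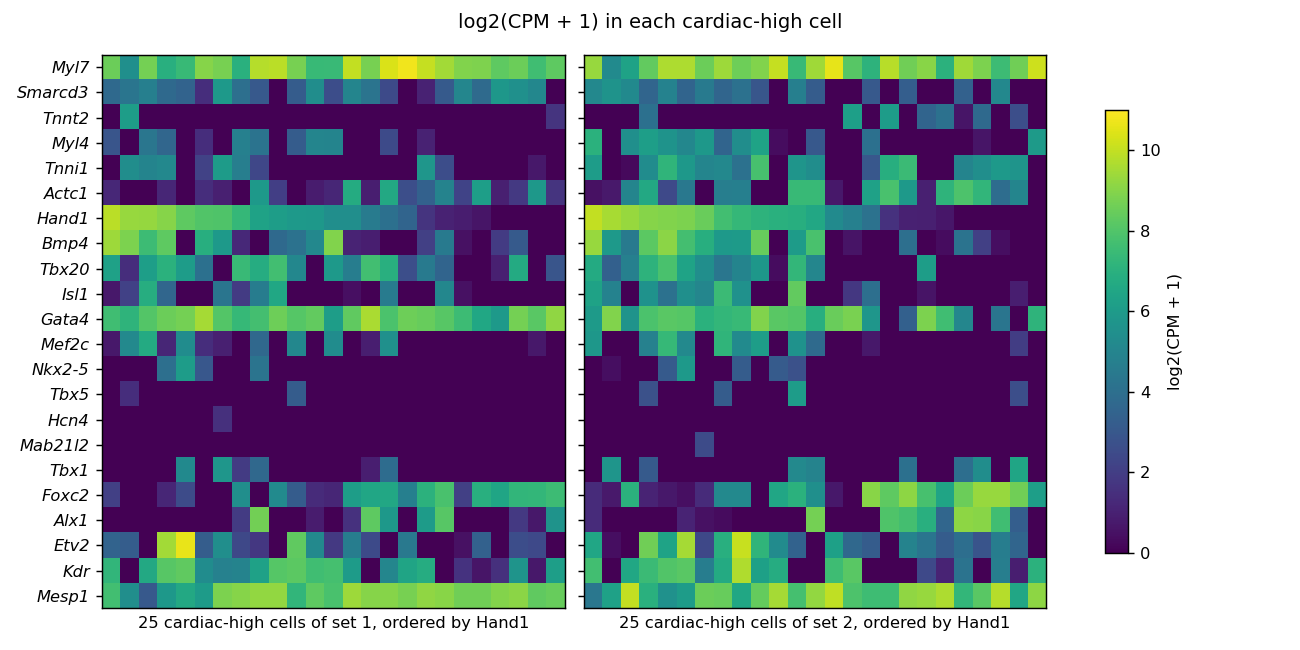
Log2(CPM + 1) of 22 genes (rows) in the 25 cardiac-high cells of each library set (columns), ordered from left to right by Hand1, with colour from 0 (dark) to the highest value (yellow). Myl7 is read in every column, Foxc2 rises towards the right where Hand1 is low, and Nkx2-5, Tbx5 and Tnnt2 fill few cells.

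Genes of other lineages were also present in some of these cells. Of the haemato-endothelial list 9 of 18 genes were measured, with 1 higher, 1 lower and a median of -0.49. Among all genes measured, 0.59% were higher and 2.1% lower. Etv2, the master regulator of endothelium and blood, was called higher, at 95.7 CPM against 40.2 in set 1 and 108.9 against 29.1 in set 2. One cell gave 67.8% of its cardiac-high reads in set 1, and without it the log2 ratio there was -0.31. After thinning Etv2 was found in 44% of cardiac-high and 45.3% of other cells in set 1 and in 60% and 49.7% in set 2. Lmo2, a partner of the blood factor Tal1, was lower, at 0.790 CPM against 23.4 and 1.63 against 25.8. Kdr, the VEGF receptor, had cell medians of 64.96 CPM against 36.3 in set 1 and 24.8 against 21.9 in set 2, while its summed level was lower in the cardiac-high cells of both, at 72.6 against 105.2 and 102.8 against 140.02. The 2 measures of Kdr thus differ in direction.

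The anterior paraxial list had 6 of 12 members measured, 2 higher and 0 lower, with a median of 0.70, where 0.59% of all genes were higher and 2.1% lower. Alx1 was 65.6 CPM against 5.25 in set 1 and 93.4 against 35.2 in set 2. Tcf15, a bHLH factor of paraxial mesoderm, was 9.29 against 2.62 and 32.9 against 14.96. The extraembryonic list had 7 of 12 members measured, 2 higher and 0 lower, with a median of 1.20. Bmp4 is the median gene of this list. The first heart field and BMP lists also hold Bmp4, whose log2 ratio of 0.45 is their median in set 1. The medians of these lists are therefore not independent. Tdo2, tryptophan dioxygenase, was 22.4 CPM against 0.579 in set 1 and 5.58 against 0.372 in set 2, with 70.8% and 86.6% of its cardiac-high reads in 1 cell of each set.

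Signalling genes differed by pathway, where 0.59% of all genes measured were called higher and 2.1% lower. For BMP, whose ligands induce heart mesoderm, 15 of 16 genes were measured, 3 higher and 0 lower, with a median of 0.80 (set 1 alone gave 0.45, set 2 alone 1.14). Beside Bmp5 and Id3, the gene called was Smad6, an inhibitor that BMP induces, at 9.10 CPM against 3.31 and 18.8 against 6.63. Bmp4, the ligand, was 83.5 CPM against 60.9 in set 1 and 99.1 against 24.9 in set 2. Msx1, a target, was 96.9 against 76.7 and 218.5 against 51.2, and Id2 was 22.4 against 24.8 and 131.4 against 17.4. The receptors Bmpr1a and Bmpr2 had log2 ratios of 0.36 and 0.24, and -0.11 and -0.48.

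For WNT, 16 of 19 genes were measured, 0 higher and 5 lower, with a median of -0.82. The share of lower genes among all measured was 2.1%. The ligands Wnt3a (log2 ratios -1.82 and -3.17), Wnt2b (-2.55 and -1.89) and Wnt5b and the targets Axin2 (-1.41 and -1.22) and Sp5 were the 5. The secreted inhibitor Sfrp1 went the other way, at 141.5 CPM against 39.7 and 202.5 against 120.02, and was found after thinning in 76% and 80% of cardiac-high cells against 35.1% and 51% of others.

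For FGF, 15 of 16 genes were measured, 1 higher and 0 lower, with a median of -0.36. Fgfr3, a receptor, was the one called, at 14.2 CPM against 1.98 in set 1 (7.16-fold, 6.15 to 8.34) and 56.1 against 5.71 in set 2 (9.82-fold, 9.26 to 10.4). The FGF targets Spry4, Etv4 and Etv5 had lower levels in both sets, with log2 ratios from -1.74 to -0.46. Apln, the apelin ligand, was the gene lower among 11 genes of VEGF, PDGF and apelin signalling, at 0.188 CPM against 25.2 and 3.59 against 59.1. Its receptor Aplnr was at 424 against 443 and 400 against 623. Of 11 Notch genes 0 were called, with a median of 0.15. With 0.59% of all genes called higher and 2.1% lower, that count of 0 is near the background.

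Of the epithelial genes, Cdh1 and Cldn6 were near 0, unlike the keratin Krt18. Cdh1, the epithelial cadherin, was 0.226 CPM against 16.6 in set 1 and 0.238 against 49.6 in set 2. After thinning it was found in 0 and 1 of 25 cardiac-high cells, against 23% and 30.8% of other cells. Cldn6, a tight junction protein, was 0.602 CPM against 67.4 and 3.20 against 97.2. With Cdh3, these were the 3 lower genes of 11 measured for cadherins and mesenchymal transition. Cdh2 and Cdh11, mesenchymal cadherins, had log2 ratios of -0.66 and -0.59, and -0.49 and -0.68. For comparison with the lists that follow, 2.1% of all genes measured were lower. Of the epiblast list, 12 of 13 genes were measured and 6 were lower, with a median of -1.64. Of the presomitic list, 12 of 13 were measured and 6 were lower, with a median of -1.27, and of the primitive streak list 13 of 14 were measured and 3 were lower, with a median of -0.54. Definitive endoderm and axial genes had 7 of 12 measured and 2 lower, with a median of -1.81. Msgn1, a presomitic bHLH factor, had no read in the cardiac-high cells of set 1, against 3.95 CPM in the others.

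Lists of general cell functions held no called gene. Of 15 S phase genes, 15 G2/M genes, 13 glycolysis genes and 17 respiratory chain genes measured, 0 were called, with medians of -0.15, -0.11, 0.05 and 0.08. With 0.59% of all genes called higher and 2.1% lower, counts of 0 in lists of this size are near the background. Of 17 genes of smooth muscle and actin 0 were called (median 0.17), and of 17 matrix genes Sparc was the 1 higher (median -0.01). The immediate early and stress genes, which move with cell handling, had 9 of 12 measured, 0 called and a median of 0.38, with Fos at 34.5 CPM against 19.7 and 209.3 against 41.6. The median mitochondrial share of reads was 4.06% against 4.14% and 3.06% against 3.81%. Mesp1 stood at 403 CPM against 552 and 436 against 549.

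The groups of E7.25 cells taken for comparison were the 25 highest of each set for haemato-endothelial genes (Etv2, Tal1 and Lmo2) and for anterior paraxial genes (Foxc2, Tcf15 and Meox1). They were fixed by these genes, and no distance between cells was measured. Cells high for extraembryonic genes were not taken as a group. Of the 50 cardiac-high cells, 7 (14%) were also haemato-endothelial-high and 13 (26%) also paraxial-high, each as a share of 50 cells in either list, and 20 (40%) belonged to either. Each of these groups holds 14.7% of all E7.25 cells, so the haemato-endothelial share is near that of all cells. Without the shared cells 3.68% of genes were lower in place of 2.1%. Myl7 was also high in the paraxial-high cells, at 397 and 271.6 CPM, and low in the haemato-endothelial-high cells, at 62.4 and 89.7. Smarcd3 was 8.48 and 3.01 CPM in the paraxial-high and 1.47 and 2.52 in the haemato-endothelial-high cells. Both are scored genes, so their levels in the cardiac-high cells follow from the choice. Hand1 stood at 18.5 and 6.33 CPM in the paraxial-high cells. These were chosen partly on Foxc2, whose correlation with Hand1 outside the cardiac-high cells was -0.34 and -0.42. The Hand1 level there is therefore not independent of that choice. The shared cells keep these values from being independent, and no test of them was possible.

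**Figure D5:**
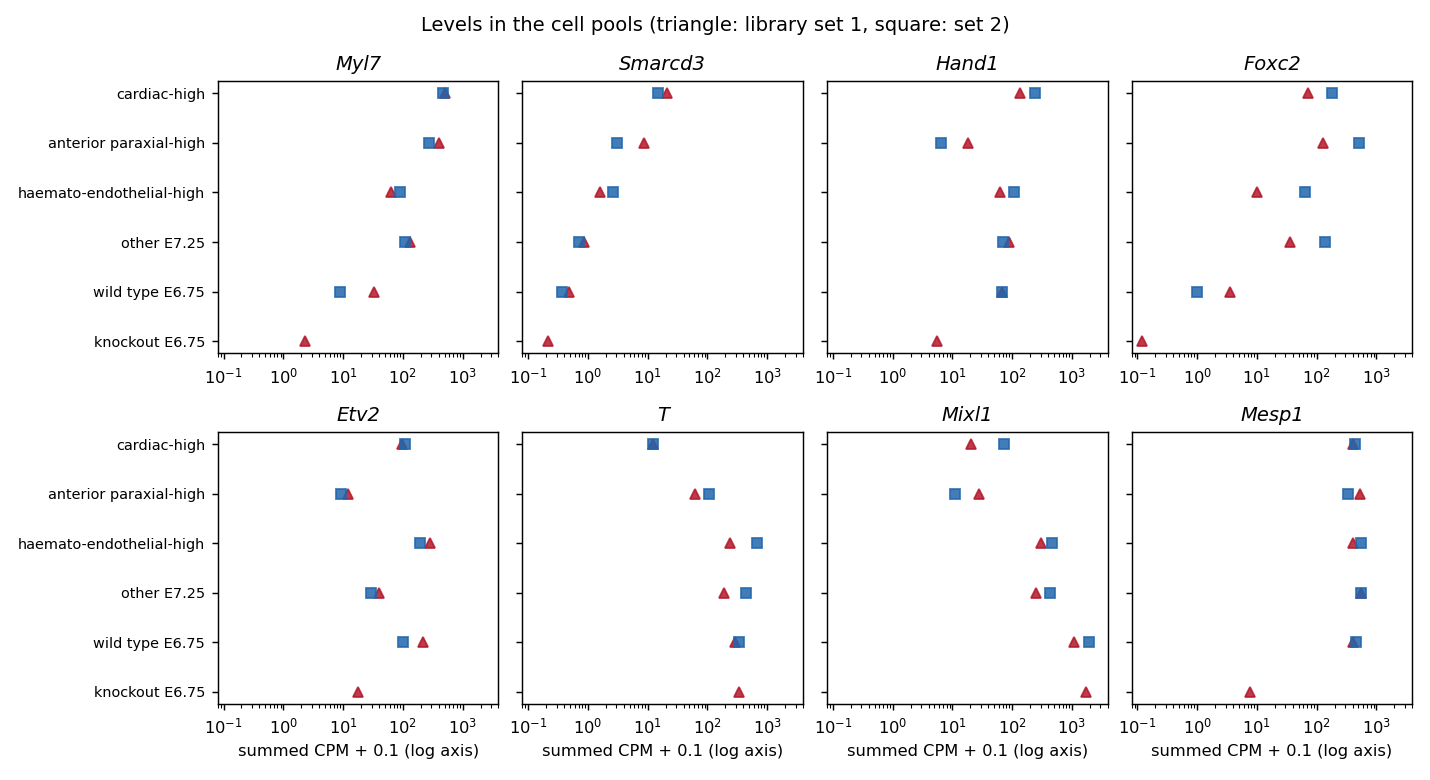
Summed level of 8 genes (CPM plus 0.1, log axis) in cardiac-high, paraxial-high, haemato-endothelial-high and other E7.25 cells and in the E6.75 groups, with set 1 as triangles and set 2 as squares. Myl7 and Smarcd3 are among the genes that chose the cardiac-high cells, T is lowest in the cardiac-high pools, and Mesp1 is low in the knockout pool only.

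At E6.75 no cell reached the lowest score of the cardiac-high cells. The counts were 0 of 83 wild type cells in set 1, 0 of 89 in set 2 and 0 of 85 knockout cells, which allow up to 3.61%, 3.37% and 3.53%. The highest scores there were 2.90, 2.97 and 2.24. Myl7 stood at 33.01 and 8.68 CPM in wild type cells and at 2.25 in knockout cells. At E6.75, Bmp5 was at 0 and 0.681 CPM in the wild type pools and at 0 in the knockout pool, and Capn6 at 2.12, 2.03 and 0.193. T was at 292.6 and 333.2 CPM in wild type and 344 in knockout cells.

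The same choice of the 25 highest scores was also applied at E6.75, an analysis added after the data had been seen. There 25 cells are 30.1% and 28.1% of the wild type and 29.4% of the knockout cells, with lowest scores of 1.34, 1.12 and 0.517, so these groups are not alike in score to those at E7.25. Of the 15 lower genes named at E7.25, 13 were lower in the 25 highest cells of set 1 and 10 of set 2, and 6 in the knockout cells. Past 2-fold were 5, 0 and 0 of them. Of the 15 higher genes, 11 were higher in set 1, 8 of 14 in set 2 and 3 of 10 in the knockout cells. Over all lower genes that reached 1 CPM there, 70.9% and 55.4% were again lower in wild type and 54.8% in knockout cells, where 53.9%, 52.1% and 49.5% of all measured genes were lower. Of the higher genes 53.97%, 56.7% and 44.9% were again higher, where 46.1%, 47.9% and 50.5% of all measured genes were higher. Hand1 had log2 ratios of 2.03 and 1.20 in the highest wild type cells at E6.75 and 0.57 in the highest knockout cells, and Foxc2 2.92 and 0.80, and 0.03. T, by contrast, had -1.64 and -0.56 in wild type and 0.50 in knockout cells. Stage, litter and library preparation cannot be told apart between these groups.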

How the data were processed

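RNA of single cells was measured in 598 libraries of Mesp1-GFP+ mouse cells, grouped by the labels into wild type E7.25, wild type E6.75 and knockout E6.75. The authors deposited a table of read counts, with a column for each cell and no normalization. GSNAP made the alignments and HTSeq 0.5.3p3 the counts, on mm10, per the submitters' processing notes. Not given in the sources used here were the aligner's parameters, the annotation and the strand setting. GENCODE M21, on the same assembly as mm10 (GRCm38), gave a symbol for 40254 of 40912 gene identifiers, and 0 columns had no sample. A protocol in the labels speaks of adult bone marrow cells, which does not match the embryonic samples.

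Counts were summed over the cells of a pool and scaled to CPM by reads on genes, so deep cells weigh most. Cell depth ran from 101895 to 14159574 reads. Log2 ratios have 1 CPM added, which understates low genes, and the mean of both sets is given for lists, without the scored genes. Shares of cells use cells thinned to 100000 reads. A gene told the sets apart when its share of E7.25 cells with a read differed by at least 70 percentage points. No cell was removed, and no doublet caller was run. The members, the 28 gene lists and the rules were chosen with earlier results of these data known. In each direction, the 15 called genes with the largest mean difference in log2(CPM + 1) per cell were named, provided that 20 CPM and a read in 25% of cells were reached in the higher group of both sets. Excluded were predicted gene models, Xist, Y-linked and mitochondrial genes and those that tell the sets apart. Each list gave up to 4 examples of at least 5 CPM, the regulators and Mesp1 were always named, and other genes were chosen after their values were seen. edgeR 4.0.16 and DESeq2 1.42.0 gave scaling factors for alternatives only. The steps ran in Python 3.11.15 and R 4.3.3 and were tested on simulated data. Promoters are RefSeq's.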

Additional observations from a re-analysis of the deposited data

How the results depend on the processing

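As a share of the genes measured, with the scored genes counted, genes called higher came to 0.59% and genes called lower to 2.1%. These became 0.109% and 0.287% with 10 CPM added in place of 1, 0.221% and 0.874% among genes of at least 10 CPM, 4.47% and 9.57% in library set 1 alone and 3.48% and 6.54% in library set 2 alone, where 1 condition fewer applies and the genes measured are those of that set. Settings that leave out single cells or shared cells were chosen after seeing the data, and gave 0.147% and 6.32% without each gene's top cardiac-high cell, 1.22% and 1.37% without its top other cell, and 3.68% lower without the shared cells. The named genes kept their direction in 30 of 30 cases under each alternative, except 29 with 15 cells per set and 27 under the Myl7 and Tnnt2 score. They were chosen for their direction in both sets, so it could not change in 1 set alone or with another minimum. Of the 15 higher genes, 8 stayed called with 10 CPM added, 10 with thinned cells, 8 with 15 cells per set and 9 with 40. Of the 15 lower genes, 12, 14, 12 and 13 did.

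The contractile median of 0.68 became 0.74 with mean CPM per cell, 0.25 with 10 CPM added, 0.71 with DESeq2 factors, 0.55 with thinned cells, 0.48 at 10 CPM, 0.18 with no minimum, 0.65 and 0.77 with 15 and 40 cells per set, 0.44 and 0.61 in set 1 and set 2 alone, 0.78 with at least 500000 reads and 4000 genes, 0.76 under the Myl7 and Tnnt2 score, 0.11 and 0.85 without each gene's top cardiac-high or other cell, and 0.94 without shared cells. The regulators' 0.63 became 0.29 in set 1 alone, 0.29 under the Myl7 and Tnnt2 score and 0.23 without top cardiac-high cells. The epiblast median of -1.64 became -0.97 with 10 CPM added, -1.82 without mitochondrial genes, -1.80 and -1.30 with 15 and 40 cells, -1.33 in set 2 alone, -1.43 with deeper cells, -1.24 under the Myl7 and Tnnt2 score, -2.13 without top cardiac-high cells and -1.21 without shared cells. Under the Myl7 and Tnnt2 score the extraembryonic median was 0.0054, the BMP median 0.16 and the first heart field median -0.16. The erythroid list, with 1 gene measured (Gata1, 1.27), turned to -0.11 with 15 cells, -1.28 in set 1 alone and -0.97 under that score. Apart from the fall built into leaving out a top cell and the change of 22 cells under that score, the cause was not tested. Genes with no read in a pool, set to a floor of 3 counts over that pool, moved no list median.

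No paired analysis was possible because the numbers in the labels only count cells and the results come from no test. At these depths, a share of 25 cells is imprecise (12% has an interval of 2.55% to 31.2%), and a gene rarer than 1 read in 100000 is missed after thinning.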

Other observations

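Genes with reads of the Y chromosome were found in 56% of cardiac-high and 54.7% of other cells of set 1, and in 0 cells of set 2. Cyp26a1, the main enzyme that degrades retinoic acid in the gastrula, was 888 CPM against 735 in set 1 and 252.9 against 714 in set 2. Stra6, a retinol transporter, was 113.1 against 13.7 and 132.1 against 84.9, and Rarb, a retinoic acid receptor, was 3.46 against 1.35 and 10.8 against 0.692. Fn1, the fibronectin of the mesoderm matrix, was lower in both sets, at 750 against 1317 and 813 against 1301, within the 2-fold threshold. Plac1, a placental gene listed with the extraembryonic mesoderm, was 7.97 against 8.71 in set 1 and 15.5 against 0.957 in set 2. These genes were chosen after their values were seen.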
